A study of Mus musculus with 56 samples.

Results

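The complement genes described here are C3, C2, Cfb, Cfd, C1qa, C1qb, C1qc, Serping1 and C4b, a list of 9 drawn up by name, and all 9 were found among the 20018 genes that could be named on the array. Each gene was read from 1 probe, the one with the brightest sample signal, which was the same probe in lung, liver and forestomach. RNA came from male MutaMouse animals of about 14 weeks, a strain that carries a bacterial reporter transgene for scoring mutations, in every group alike. Chrysene, a combustion product of the polycyclic aromatic hydrocarbon class, was given by gavage in olive oil on 28 consecutive days. The daily dose was 17.5 mg/kg in group D1, 50 mg/kg in D2 and 150 mg/kg in D3, the vehicle group D0 received the oil without chrysene, and tissue was taken 72 hours after the final dose. RNA was made from random pieces of each organ, so the share of each cell type in a piece was not controlled. In dose order, lung was measured in 5, 5, 3 and 5 mice and each other tissue in 5, 5, 4 and 5 mice, which makes 56 arrays with 1 per mouse and tissue. Values are log2 ratios of the sample (Cy5) to a reference RNA pooled from 11 mouse cell lines (Cy3), so 1 unit is a doubling relative to that reference.

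Complement is a cascade of plasma proteins that coats microbes and damaged cells and recruits leukocytes. In the classical pathway C1q, a complex of the chains encoded by C1qa, C1qb and C1qc, binds antibody or cell surfaces, and its attached proteases cleave C4 and C2, whose fragments form an enzyme that cleaves C3. The alternative pathway reaches C3 through factor B (Cfb) and factor D (Cfd), and C1 inhibitor (Serping1) blocks the proteases of C1. The liver is the main source of most plasma complement components, C1q is made mostly by macrophages and dendritic cells, and factor D, also named adipsin, is made mostly by fat cells.

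The members lie in a few places of the genome. C1qa, C1qc and C1qb are direct neighbours on chromosome 4 with 0 other protein-coding genes between them. C2 and Cfb are direct neighbours on chromosome 17, with C4b 5 protein-coding genes away from Cfb, and C3 lies elsewhere on the same chromosome. Cfd lies on chromosome 10 and Serping1 on chromosome 2. RefSeq promoters were at hand for 4 of the 9 members. The 250 bases before the transcript start are shown because C1qb and C1qc varied together from mouse to mouse in lung and liver, and because C3 and Cfd were little correlated in lung. All are in build GRCm38.p6, written 5′ to 3′ on the strand of the gene. C1qb lies at chr4:136886201-136886450 and C1qc at chr4:136892915-136893164, both on the minus strand. C3 lies at chr17:57228137-57228386 on the minus strand and Cfd at chr10:79890603-79890852 on the plus strand. Capitals mark a match to one of the motifs named after the sequences.
C1qb: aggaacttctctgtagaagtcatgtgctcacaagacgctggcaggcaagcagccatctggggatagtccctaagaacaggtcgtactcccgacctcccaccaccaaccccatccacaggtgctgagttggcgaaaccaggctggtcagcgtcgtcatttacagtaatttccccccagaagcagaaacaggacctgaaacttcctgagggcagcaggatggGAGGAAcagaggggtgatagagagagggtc
C1qc: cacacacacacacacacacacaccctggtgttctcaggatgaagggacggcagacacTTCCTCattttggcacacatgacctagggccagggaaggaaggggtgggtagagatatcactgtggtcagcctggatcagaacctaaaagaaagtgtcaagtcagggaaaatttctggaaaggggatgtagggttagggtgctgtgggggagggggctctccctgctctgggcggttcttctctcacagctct
Cfd: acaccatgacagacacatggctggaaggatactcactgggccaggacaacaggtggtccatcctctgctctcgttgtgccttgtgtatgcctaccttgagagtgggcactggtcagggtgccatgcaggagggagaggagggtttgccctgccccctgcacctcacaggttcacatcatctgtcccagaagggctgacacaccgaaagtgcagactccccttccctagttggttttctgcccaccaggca
C3: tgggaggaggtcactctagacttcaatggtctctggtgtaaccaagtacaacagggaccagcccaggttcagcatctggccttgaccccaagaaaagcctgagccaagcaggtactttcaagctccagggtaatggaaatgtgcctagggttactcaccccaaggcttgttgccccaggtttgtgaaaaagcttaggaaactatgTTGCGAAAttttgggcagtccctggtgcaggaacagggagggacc

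The motifs were searched on both strands of the same 250 bases in all 32851 promoters of the table. GAGGAA, a core letter string of sites for PU.1-type factors of myeloid cells, was held by 23.3% of promoters. It occurred in C1qb with its first base 30 bases before the start, and in C1qc on the other strand from 193 bases before the start. TTGCNNAA, a C/EBP-type letter string, was held by 9.56% of promoters and occurred in C3 from 45 bases before the start. GCGTG, the core of the element bound by the Ah receptor, was held by 28.2% of all promoters and is not among the letters of these 4 windows, and the same was true of TATAAA, held by 12.4%. None of these motifs overlaps another in the windows shown.

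The arrays differed in brightness by slide, and this matters most in forestomach. The share of probes with a Cy5 signal well above background lay between 47.5% and 55.2% on the lung arrays and between 33.2% and 45.1% on the liver arrays. In forestomach it lay between 18% and 33.4% on slides 1 and 2 and between 38.9% and 50.2% on slide 3, and each slide held both D0 and D3. The labelled tissues carried their defining markers. All 6 hepatocyte markers were above background on every liver array, all 4 alveolar type 2 markers on every lung array, and 5 of 6 keratinocyte markers on every forestomach array. The forestomach arrays also carried genes of the glandular stomach in unequal amounts, with the summed Cy5 signal of 8 markers between 601.7 and 1501000. The lung arrays of D3 mice 17 and 19 carried skeletal muscle markers 6.15 and 6.42 log2 units, and keratinocyte markers 4.86 and 5.36 log2 units, above the D0 mean of each list, so the lung D3 results are also given without them. Array columns within a slide ran in dose order on 16 of 18 lung arrays and on 17 of 19 arrays of each other tissue, so the parts of position and dose cannot be told apart. With position as a covariate 8 of the 9 lung D3 changes given below turned below 0, with a median of -0.55, and the ninth, Cfd, was 8.38. The unadjusted limma p of those 8 lay between 0.248 and 0.973, so their signs are not settled.

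Detection of the members was good with 2 exceptions. All 9 members were well above background on all 18 lung arrays, and 8 of 9 on all 19 liver arrays. Cfd was above background on 3 of 19 liver arrays, of which 2 were D1 and 1 was D3, and so entered the tests in liver only through dosed mice. In forestomach Cfd was above background on 12 of 19 arrays, C2 on 17, C1qa, C1qc and Cfb on 18, and C3, C1qb, Serping1 and C4b on 19. All members passed the filter of 3 arrays in every tissue. The C3 and C1qc probes were each spotted 10 times per array, and the median SD of the log2 ratio over those spots was 0.0728, 0.0493 and 0.127 for C3 and 0.116, 0.118 and 0.134 for C1qc in lung, liver and forestomach. The SD of C3 over the 5 D0 mice was 0.93 in lung, 0.24 in liver and 0.42 in forestomach, each wider than the spots of the median array.

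**Figure D1:**
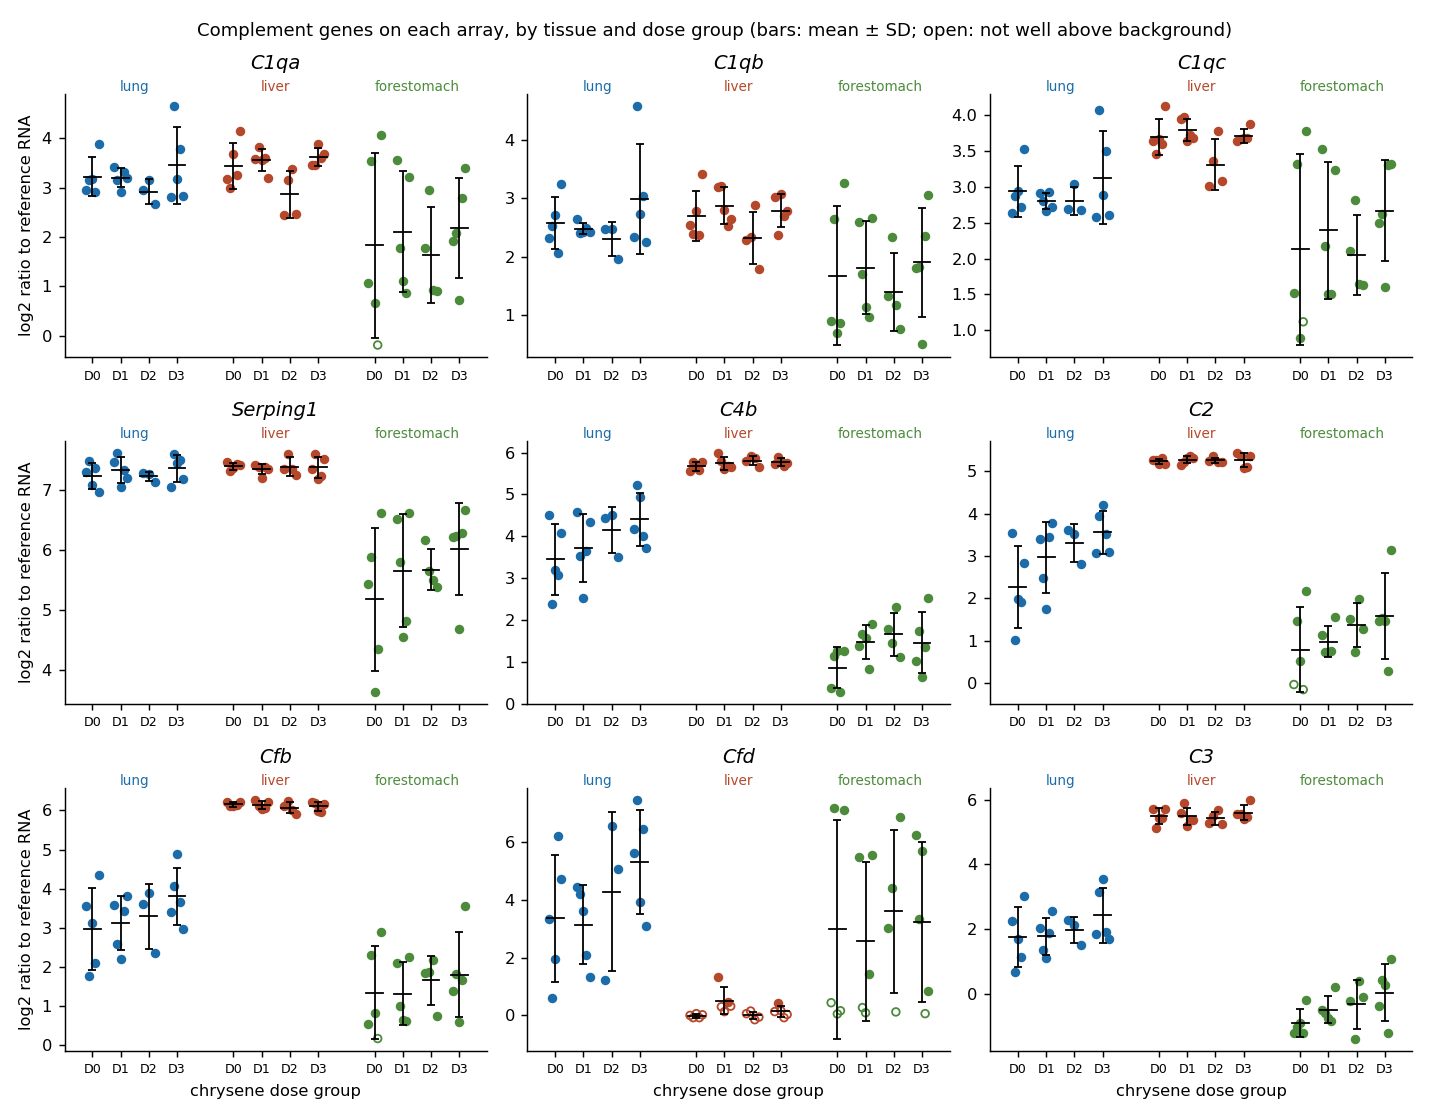
Log2 ratio to the reference RNA (vertical axis) of each complement gene on each array, by tissue and dose group (horizontal axis). Points are mice, open points are arrays on which the probe was not well above background, and bars give the mean ± SD. For C3, C2, Cfb and C4b the liver values are the highest of the 3 tissues, with D0 means of 5.49, 5.23, 6.15 and 5.67, and Cfd is near 0 in liver and widely spread in lung and forestomach.

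The first comparison asked how the members stand in the tissues of vehicle mice. C3, C4b, C2 and Cfb all stood highest in liver, lower in lung and lowest in forestomach, and all 3 steps of each gene passed the limits (limma adjusted p at most 0.05 and fold at least 1.5). Over all probes tested, 24.9% were called higher and 21.1% lower in lung than in liver, 19.3% higher and 18.3% lower in lung than in forestomach, and 19% higher and 22% lower in liver than in forestomach. Of the 9 members, 1 was called higher and 4 lower in lung than in liver, 6 were higher and 0 lower in lung than in forestomach, and 8 were higher and 1 lower in liver than in forestomach. The member higher in lung than in liver, and the one lower in liver than in forestomach, was Cfd, which none of the D0 livers had well above background and which entered through the other tissue, so nothing is read from those calls. In bulk tissue fewer cells of a type and less RNA per cell cannot be told apart.

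C3, the component at which all pathways meet, had ratios of 5.72, 5.13, 5.44, 5.45 and 5.72 in the livers of D0 mice 1 to 5. In lung the same mice had 2.25, 0.66, 1.69, 1.13 and 3.02, and in forestomach -1.22, -1.05, -0.90, -1.21 and -0.19. The tissues did not overlap. Liver exceeded forestomach by 6.41 log2 units (SE 0.36, 84.9-fold, limma adjusted p 3.25e-21) and lung by 3.74 (SE 0.36, 13.4-fold, adjusted p 4.79e-13), and lung exceeded forestomach by 2.66 (SE 0.36, 6.34-fold, adjusted p 1.14e-08).

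C4b, which encodes C4, had D0 means of 5.67 ± 0.10 in liver, 3.45 ± 0.85 in lung and 0.86 ± 0.49 in forestomach (SD, n = 5 each). Liver exceeded lung 4.66-fold and forestomach 28.1-fold. C4b has a near-identical neighbour, C4a, and how far the probe tells the pair apart is not known here. C2, the C4-linked protease, had D0 means of 5.23 ± 0.06, 2.26 ± 0.96 and 0.78 ± 1.00 in the same tissues, and liver exceeded lung 7.87-fold and forestomach 21.8-fold. Cfb, its counterpart in the alternative pathway, had 6.15 ± 0.06, 2.98 ± 1.05 and 1.34 ± 1.18, and liver exceeded lung 9.03-fold and forestomach 28.1-fold. The largest adjusted p of these liver comparisons was 5.09e-08 (limma). From mouse to mouse the SD of these genes was 0.06 to 0.10 in liver and 0.85 to 1.05 in lung. In forestomach D0, C2 was well above background on 3 of 5 arrays and Cfb on 4 of 5, so the sizes of their forestomach folds are not settled. When each array was centred on its median in place of the loess, which put the median of all probes at 0.62 for lung minus liver, the C4b difference from lung to liver was -1.37 and missed the limit (limma adjusted p 0.0798). With only the bright forestomach slide 3, on which 2 D0 mice lay, the lung excess over forestomach fell to 0.45 for C2 and 0.39 for Cfb (adjusted p 0.454 and 0.506), a setting chosen after the data were seen.

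Serping1 was not seen to differ between liver and lung. Its D0 mean was 7.40 ± 0.06 in liver and 7.24 ± 0.21 in lung (SD, n = 5 each), and the difference of -0.16 (lung minus liver) had a 95% interval from -0.83 to 0.50. In forestomach the D0 mice had 5.44, 5.88, 3.63, 4.34 and 6.61, below all liver and lung values. Liver exceeded forestomach 4.66-fold and lung 4.16-fold (limma adjusted p 1e-07 and 6.07e-07). Under median centring, which put the median of all probes at 0.62 (0.03 in the authors' values), the lung minus liver difference was 0.66 (adjusted p 0.405).

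The C1q genes did not pass the limits between liver and lung. The D0 means in liver were 3.45 ± 0.47 for C1qa, 2.70 ± 0.43 for C1qb and 3.69 ± 0.25 for C1qc, and in lung 3.22 ± 0.39, 2.57 ± 0.45 and 2.94 ± 0.36 (SD, n = 5 each). The lung minus liver differences were -0.23 for C1qa (95% interval -1.27 to 0.82), -0.13 for C1qb (-0.95 to 0.69) and -0.76 for C1qc (-1.51 to 0, limma adjusted p 0.0704). With each mouse kept as a block the C1qc difference passed the limit (adjusted p 0.0483). In a fit of lung and liver alone it did so too (adjusted p 0.000808). Under median centring the differences were 0.73, 0.97 and 0.53 for C1qa, C1qb and C1qc, beside a median of 0.62 over all probes under that centring.

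In forestomach the C1q values split by slide and not by dose. C1qa in D0 mice 1 to 5 was 1.07, 3.54, 0.66, -0.19 and 4.06, and the high values of mice 2 and 5 were those on slide 3. Over all doses C1qa lay between 2.79 and 4.06 on the 7 arrays of slide 3 and between -0.19 and 2.07 on the other 12, with Cy5 median signals of 423 to 987 and of 63 to 179. C1qb lay between 2.33 and 3.26 and between 0.50 and 1.82 on the same arrays, and C1qc between 2.82 and 3.78 and between 0.89 and 2.62. The groups of arrays did not overlap for any of these genes. Lung exceeded forestomach by 1.39 for C1qa (SE 0.52, limma adjusted p 0.0188), 0.90 for C1qb (adjusted p 0.0536) and 0.81 for C1qc (adjusted p 0.0584), and with the mouse as a block the latter pair passed (adjusted p 0.0377 and 0.0392). They also passed with loess from the scanner signals (adjusted p 0.0402 and 0.0426) and under median centring (adjusted p 0.00872 and 0.00897). In a fit of lung and forestomach alone the C1qa difference missed the limit (adjusted p 0.0524). The C1qa call was lost without D0 mouse 1, 3 or 4 (1.27, 1.11 and 0.96, adjusted p 0.0659, 0.101 and 0.132), and those of C1qb and C1qc were gained without mouse 2 or 5. Liver exceeded forestomach by 1.62, 1.03 and 1.57 for C1qa, C1qb and C1qc (adjusted p 0.00622, 0.0263 and 0.000327), of which C1qa was lost without mouse 3 or 4 (adjusted p 0.057 and 0.064) and C1qb without mouse 1, 3 or 4 (adjusted p 0.103, 0.149 and 0.0816). Under median centring all 3 missed the limit, with differences of 0.79, 0.45 and 1.06, and after normexp background correction C1qb missed it (0.79, adjusted p 0.0865). With slide 3 alone in forestomach, lung minus forestomach was -0.58, -0.38 and -0.61 and liver minus forestomach -0.36, -0.25 and 0.14 for C1qa, C1qb and C1qc. The lung minus forestomach difference of C1qc passed both limits in that setting, in the direction opposite to that over all slides (adjusted p 0.0368). The part of array brightness in these differences was not tested.

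**Figure D2:**
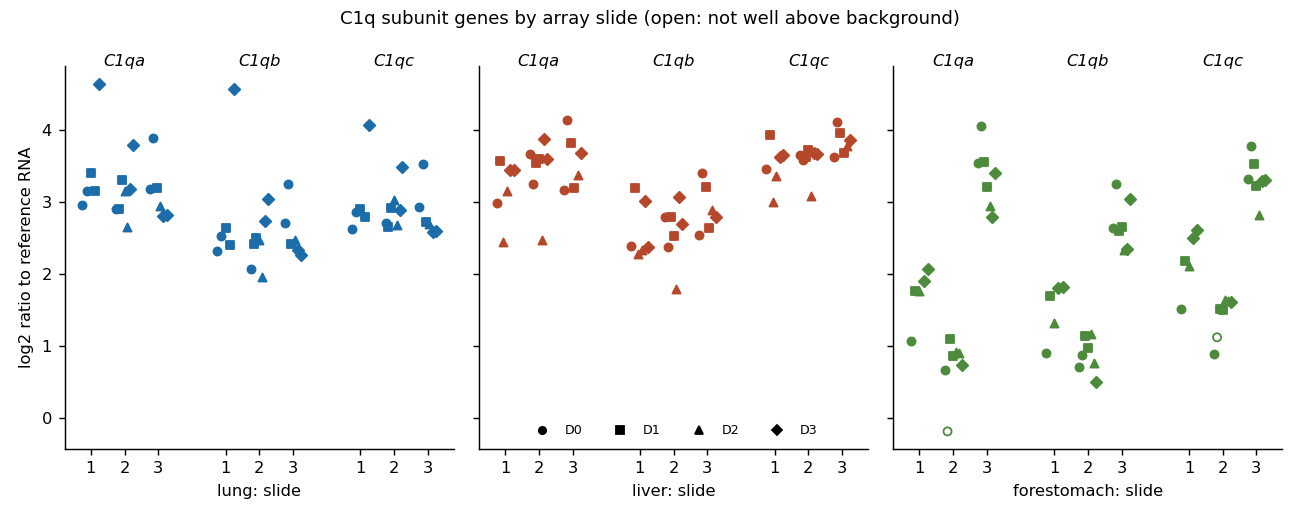
Log2 ratio to the reference RNA (vertical axis) of C1qa, C1qb and C1qc on each array, by slide (horizontal axis) within each tissue. The marker shape gives the dose group and open markers are arrays not well above background. In forestomach every array of slide 3 lies above every array of slides 1 and 2, with C1qa between 2.79 and 4.06 against -0.19 and 2.07.

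Cfd had the widest spread of all members in lung and forestomach. In lung the D0 mice had 3.33, 0.61, 1.95, 6.21 and 4.74, and the SD over these vehicle mice was 2.21. In forestomach the D0 mice had 0.43, 7.19, 0.04, 0.15 and 7.12, and over all doses 10 arrays lay between 3.02 and 7.19 and 9 between 0.04 and 1.42, with none in between. In liver all 5 D0 mice lay between -0.09 and 0.05 and 0 of them was well above background. A bound on the liver side alone was taken from Cy5 signals scaled across arrays, with dye bias not removed because no dyes were swapped. By that bound the lung D0 mean, where all 5 arrays measured the gene, was at least 9.46-fold above the liver D0 mean. That bound rests on all 5 mice and leaves out the spread between them. The lung minus liver difference of the ratios, 3.39, had a 95% interval from 0.78 to 6.01. It was 2.67 without D0 mouse 4 and 3.06 without D0 mouse 5, and missed the limit in both cases (limma adjusted p 0.0968 and 0.0535). No fold is given for forestomach, where 2 of 5 D0 arrays measured the gene. The lung minus forestomach difference of the ratios was 0.38 (95% interval -2.23 to 2.99). It includes the forestomach arrays at background, so its size is not settled. With forestomach slide 3 alone the difference was -3.79 (limma adjusted p 0.00231).

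The second comparison asked how the members responded to chrysene. At no dose and in no tissue did a member pass both limits, so that 0 of 9 members were called in each of the 9 comparisons and in the 3 dose trends. Over all probes the limits were passed by 0%, 0% and 0.127% in lung at D1, D2 and D3 and by 0.169% in the lung trend. The shares were 0% at each dose and in the trend in liver, and 0%, 0%, 0.00728% and 0.04% in forestomach. The Fs statistic named in the study's methods, rewritten here without the study's software, also called 0 of 9 at D3 in each tissue. It is not the study's own run. At an unadjusted p of at most 0.05 the lung comparisons held 0, 1 and 2 members, the liver comparisons 1, 2 and 0, and the forestomach comparisons 0, 1 and 1, in the order D1, D2 and D3. The liver member at D1 was Cfd, which entered the liver tests only through dosed mice, so nothing is read from its p. The background at this limit was 5.88%, 6.12% and 16.2% of probes in lung, 3.61%, 3.8% and 4.79% in liver and 4.17%, 7.54% and 9.25% in forestomach.

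In lung all 9 members had a D3 change above 0, with a median of 0.68 beside a median of -0.03 and a share above 0 of 42.5% over all probes tested. Within slide 3 the median was -0.53. Members that varied together from mouse to mouse, described below, do not count as separate results. C2 was the member with the smallest p. Its ratios were 3.55, 1.02, 1.98, 1.90 and 2.83 in D0, 3.39, 2.48, 1.74, 3.45 and 3.77 in D1, 3.62, 3.52 and 2.80 in D2 and 3.06, 3.93, 4.20, 3.51 and 3.09 in D3. Every D3 mouse lay above 4 of the 5 D0 mice, 2 of 5 lay above all of them, and D0 mouse 1 overlapped the dosed groups. The means were 2.26 ± 0.96 at D0, 2.97 ± 0.83 at D1, 3.31 ± 0.44 at D2 and 3.56 ± 0.51 at D3 (SD, n = 5, 5, 3 and 5). The D3 change was 1.30 (SE 0.43, 2.47-fold, limma p 0.00742, adjusted p 0.176), and the fitted change from D0 to D3 along the dose steps was 1.27 (SE 0.40, adjusted p 0.128). Within slides 1, 2 and 3 the D3 mean exceeded the D0 mean by 1.64, 1.95 and 0.67.

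C4b ran in parallel. Its lung ratios were 4.51, 2.38, 3.19, 3.07 and 4.08 in D0 and 4.17, 5.22, 4.93, 4.00 and 3.73 in D3, with 2 of 5 D3 mice above all D0 mice. The D3 change was 0.96 (SE 0.42, limma p 0.0369, adjusted p 0.279) and the trend 0.98 (SE 0.39, adjusted p 0.212). In the lung trend 17.3% of all probes had an unadjusted p of at most 0.05, and 2 of 9 members, C2 and C4b. Within slides the C4b difference was 1.77, 1.40 and 0.31. Cfb, next to C2 on chromosome 17, changed by 0.82 at D3 (SE 0.48, adjusted p 0.413) and C3 by 0.68 (SE 0.43, adjusted p 0.461). On slide 3, which held 2 D0 and 2 D3 mice, both were lower at D3, by -0.53 for Cfb and -0.59 for C3. Without mice 17 and 19 the D3 changes in lung ranged from -0.28 to 1.19, with 1.19 for C2 (unadjusted p 0.0331), 0.82 for C4b (unadjusted p 0.106), 0.78 for Cfb and 0.61 for C3. With single mice left out the median of the members ranged from 0.41 without D0 mouse 2 to 1 without D0 mouse 5. C3 fell to 0.39 without D3 mouse 18, and without D0 mouse 2 Cfb fell to 0.52 and Cfd, described next, to 1.26.

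Cfd had the largest estimate in lung and the widest error. The D3 mice had 5.63, 7.48, 3.94, 6.48 and 3.08, of which 2 lay above all D0 mice, and the change was 1.95 (SE 1.13, 95% interval -0.43 to 4.34, limma adjusted p 0.41). The highest values were those of mice 17 and 19. The mean of the 9 adipocyte markers stood 2.26 and 2.51 log2 units above its D0 mean in this pair, 0.97 in D3 mouse 16, which had 5.63, and 2.11 in D2 mouse 13, which had the highest Cfd of its group at 6.57. The summed Cy5 signal of the list ranged from 2037 to 4997 in D0 and from 2524 to 34540 in D3, and leptin was not above background on any lung array. Of 8 adipocyte markers tested, 8 had a D3 change above 0 and 2 an unadjusted p of at most 0.05. Without mice 17 and 19 the Cfd change was 0.85 (limma adjusted p 0.864), and within slides 1, 2 and 3 it was 5.51, -1 and 1.01. The part of fat tissue in the change was not tested.

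C1qa, C1qb, C1qc and Serping1 gave small changes in lung at D3, of 0.23, 0.42, 0.19 and 0.12, with standard errors of 0.28, 0.33, 0.23 and 0.12. The C1qa values at D3 were 2.81, 4.65, 3.18, 3.79 and 2.82 against 2.96, 3.16, 3.18, 2.91 and 3.89 at D0. Only mouse 17 lay above all D0 mice, and 2 D3 mice lay below all of them. In mouse 17 the Kupffer cell list stood 2.14 and the macrophage list 0.31 above its D0 mean. Without mice 17 and 19 the changes of these 4 genes turned to -0.28, -0.13, -0.25 and -0.01. Within slides 1, 2 and 3 the difference was 1.58, 0.57 and -0.72 for C1qa and 2.16, 0.82 and -0.68 for C1qb. For C1qc it was 1.32, 0.48 and -0.65, and for Serping1 0.21, 0.12 and 0.10.

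In forestomach all 9 members again had a D3 change above 0, with a median of 0.54 beside 0 over all probes tested, of which 49.7% lay above 0. The sign was not stable for 3 of them when single mice were left out, with lowest values of -0.51 for Cfd, -0.15 for C1qa and -0.06 for C1qb. For Cfd the D3 mean exceeded the D0 mean by 4.36 and 5.59 on slides 1 and 2 and lay -6.71 from it on slide 3. None of the D0 mice on slides 1 and 2 had Cfd well above background, nor had D3 mouse 19 on slide 3, so these sizes are not settled. C3 had the largest change. Its values were -1.22, -1.05, -0.90, -1.21 and -0.19 at D0, -0.51, -0.59, -0.75, -0.84 and 0.21 at D1, -0.22, -1.40, 0.39 and -0.12 at D2 and -0.40, 0.43, 0.26, -1.23 and 1.08 at D3. Of the D3 mice 3 lay above all D0 mice, and mouse 19 lay just below all of them. The D3 change was 0.94 (SE 0.38, 1.92-fold, limma p 0.0235, adjusted p 0.416) and the trend 0.90 (SE 0.34, p 0.017, adjusted p 0.388), where 9.19% of all probes had an unadjusted p of at most 0.05. C2 changed by 0.79 (SE 0.47), Serping1 by 0.84 (SE 0.53), C4b by 0.60 (SE 0.32), C1qc by 0.54 (SE 0.56) and Cfb by 0.46 (SE 0.56), with adjusted p between 0.614 and 0.88. At D2 C4b had an unadjusted p of 0.0305, with a change of 0.81 and 3 of 4 mice above all D0 mice (adjusted p 0.609). With single mice left out the median of the members ranged from 0.29 without D0 mouse 4 to 0.95 without D0 mouse 5. Without D3 mouse 20 the changes were 0.68 for C3, 0.40 for C2, 0.33 for C4b and 0.03 for Cfb, and without D0 mouse 3 they were 0.45 for Serping1 and 0.23 for C1qc.

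These changes were not the same on all slides. For C3 the D3 mean exceeded the D0 mean by 1.24, 1.31 and 0.54 on slides 1, 2 and 3, and for C2 by 1.53, 1.30 and -0.10. When the bright slide 3 was left out, a choice made after the values were seen, 2 of 9 members passed both limits, C3 with 1.21 (SE 0.22, limma adjusted p 0.0319) and C2 with 1.38 (SE 0.20, adjusted p 0.0173) over 3 D0 and 3 D3 mice, where 1.37% of all probes were called. C2 was above background in only 1 of those 3 D0 mice, so the size of its change is not settled and its p is not relied on. Within slide 3, D3 mouse 20 had the highest ratio of C3, C2, Cfb and C4b in the tissue, 1.08, 3.14, 3.55 and 2.53, and D3 mouse 19 had C2 and C3 at 0.28 and -1.23, below both D0 mice of the slide. The mean of the glandular stomach markers stood 2.82 above its D0 mean in mouse 19 and -2.40 from it in mouse 20, against 2.68 and 1.52 in D0 mice 2 and 5 of that slide. Over all slides it ranged from -3.22 to 2.68 in D0 and from -3.33 to 2.82 in D3, the D3 change of all 8 markers was below 0 with a median of -1.44, and none had an unadjusted p of at most 0.05. The part of glandular stomach tissue in the result was not tested.

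In liver the members with high ratios stayed within a narrow band at every dose. The D3 changes of all 9 members lay between -0.05 and 0.17, with a median of 0.09 beside -0.01 over all probes, and 47% of all probes lay above 0. Cfd, with 0.15, is among the 9 although none of the D0 livers had it well above background. The 95% intervals were narrow for C2, Cfb, C4b, Serping1 and C3. For C2 the interval at D3 was -0.12 to 0.18, for Cfb -0.21 to 0.10, for C4b -0.06 to 0.26, for Serping1 -0.19 to 0.15 and for C3 -0.19 to 0.40, so changes of 1.5-fold (0.58 log2 units) lay outside each. The trend over dose steps gave 0 of 9 members at an unadjusted p of at most 0.05, against 5.42% of all probes.

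Cfd in liver is given as values only. It was 1.32, 0.29, 0.12, 0.47 and 0.31 in D1 mice 6 to 10, of which mice 6 and 9 had it well above background, and between -0.09 and 0.05 in D0, where 0 of 5 had. At D3 mouse 17 had it above background, with 0.43. C1qa and C1qc gave the unadjusted calls at D2. C1qa was 2.45, 3.15, 3.38 and 2.47 at D2 against 3.17, 2.99, 3.67, 3.25 and 4.15 at D0, a change of -0.58 (SE 0.22, p 0.0143, adjusted p 0.998), with 2 of 4 mice below all D0 mice. C1qc changed by -0.39 (SE 0.14, p 0.0131) and C1qb by -0.38 (SE 0.23), each with 3 of 4 mice below all D0 mice. The macrophage list stood between -0.48 and -0.06 around its D0 mean in the D2 livers and between -0.13 and 0.18 in the D0 livers. The Kupffer cell list stood between -1.10 and -0.28 at D2 and between -0.37 and 0.71 at D0. The part of macrophage number in these values was not tested.

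**Figure D3:**
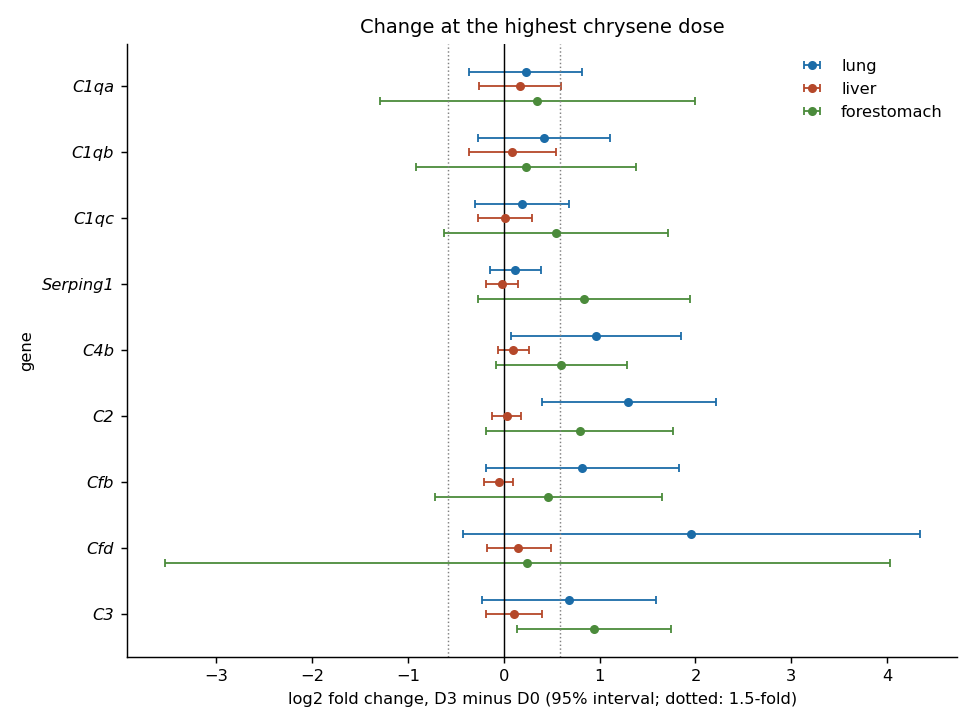
Log2 fold change of each complement gene (vertical axis) at D3 against D0 (horizontal axis), with the 95% interval of the limma fit, in lung, liver and forestomach. Dotted lines mark 1.5-fold. Of the 27 intervals, those of C2 and C4b in lung and of C3 in forestomach leave out 0, and for each gene the liver interval is the narrowest of the 3 tissues.

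Whether the D3 change itself differed between tissues was tested in 1 fit of all arrays. No member passed the limits for any pair of tissues, against 0% of probes when lung was set against liver, 0.704% when it was set against forestomach and 0.0807% for liver against forestomach. The smallest p was that of C2 between lung and liver, a difference of 1.28 (SE 0.55, 95% interval 0.18 to 2.38, limma p 0.024, adjusted p 0.842). The intervals of Cfd were the widest and reached from -1.98 to 5.41 for lung minus forestomach, so that a large difference in either direction could not be seen.

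The third comparison asked which members rise and fall together from mouse to mouse, on deviations from the dose-group means, over 27 relations with two-sided permutation tests. The C1q genes moved together in lung and liver. In lung the correlations of C1qa with C1qb and C1qc were r = 0.96 and 0.98 over 18 mice (rho 0.91 and 0.94), and that of C1qb with C1qc was 0.93 (rho 0.88). Each had a permutation p of 1e-05, the smallest that the 100000 resamples can give, and an adjusted p of 3.37e-05. Without the 2 mice farthest from the median of the first gene they were 0.90, 0.96 and 0.84, and after slide means were removed 0.96, 0.99 and 0.95. In liver they were 0.80, 0.86 and 0.79 over 19 mice (rho 0.74, 0.87 and 0.74, adjusted p at most 0.000135), 0.63, 0.74 and 0.59 without the farthest 2, and 0.82, 0.90 and 0.75 within slides. In forestomach the arrays form clusters by slide, so the values are given within slides. With slide means removed they were 0.68, 0.80 and 0.71. On slide 3 alone they were 0.84, 0.80 and 0.71 over 7 arrays and on slide 2 they were 0.26, 0.59 and 0.23 over 7, and slide 1 held too few arrays.

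C2 and Cfb, the neighbours on chromosome 17, were correlated at r = 0.87 in lung (rho 0.91, permutation p 3e-05, adjusted p 9e-05, 0.83 without the farthest 2, 0.88 within slides). They were correlated at 0.79 in forestomach (rho 0.71, p 0.00011, adjusted p 0.000228, 0.61 without the farthest 2, 0.90 within slides) and at 0.46 in liver (rho 0.46, p 0.0463, adjusted p 0.0782, 0.25 without the farthest 2, 0.34 within slides). As a description beyond the chosen relations, C3, C2, Cfb and C4b formed 1 block in lung, with all 6 of their correlations between 0.85 and 0.94, and C3 lies far from the others on the chromosome. The same 6 ranged from 0.49 to 0.83 in forestomach and from -0.20 to 0.47 in liver. With slide means removed they ran from 0.85 to 0.95 in lung, 0.63 to 0.90 in forestomach and -0.61 to 0.44 in liver. Serping1 stood outside the block in lung, with correlations of -0.06 to 0.19 to its members.

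**Figure D4:**
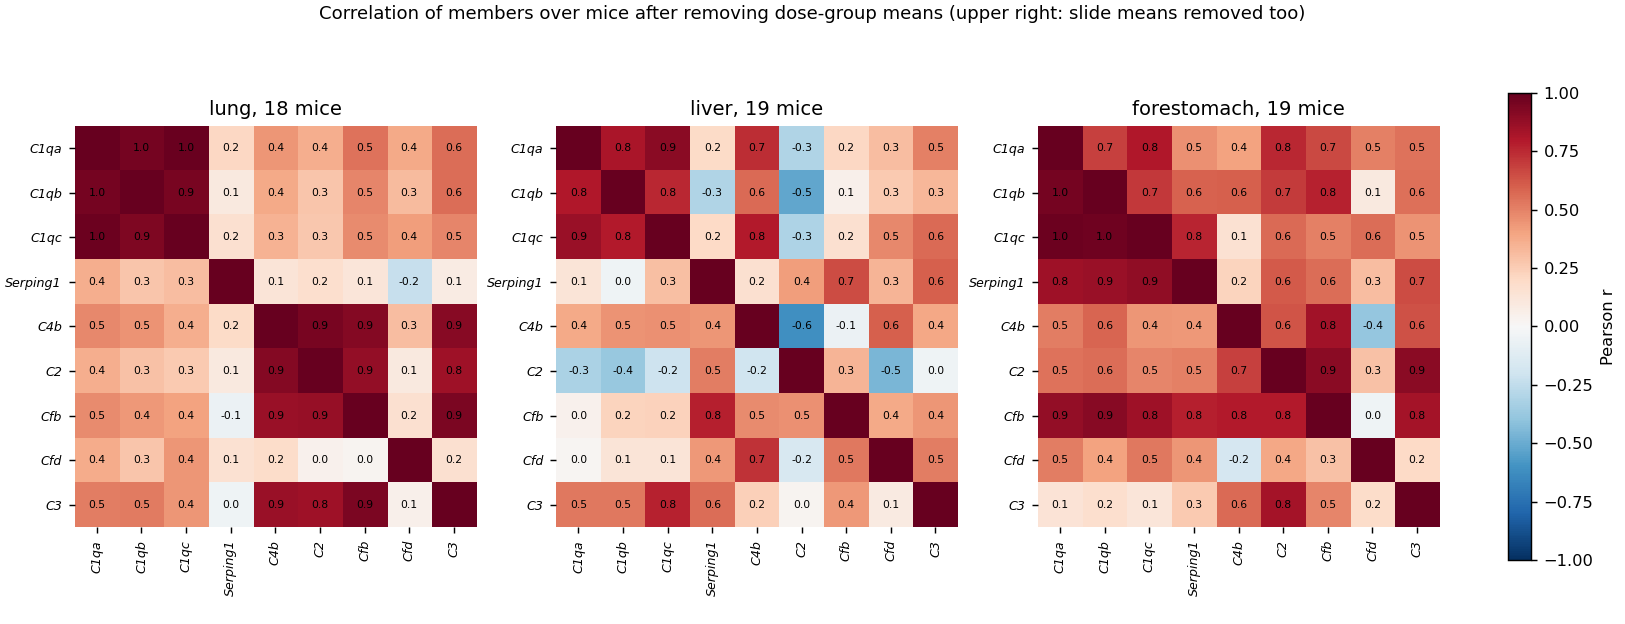
Pearson r between the complement genes over mice (each axis lists the genes) after removing dose-group means, in lung (18 mice), liver (19) and forestomach (19). Cells below the diagonal use all deviations and cells above it have slide means removed as well. The C1q genes form 1 block in lung and liver, in forestomach they reach 0.68 to 0.80 above the diagonal, and C4b, C2, Cfb and C3 a block in lung with r of 0.85 to 0.94.

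The correlation of Cfd with C3 was 0.05 in lung, 0.09 in liver and 0.18 in forestomach (permutation p 0.852, 0.712 and 0.463, adjusted p 0.852, 0.755 and 0.543), and -0.24, 0.33 and 0.18 without the farthest 2 mice. Within slides it was 0.16, 0.51 and 0.20. As a description, Cfd and Cfb had correlations of 0.03, 0.53 and 0.29 in the same tissues, and 0.16, 0.38 and -0.04 within slides. With the mean of the 9 adipocyte markers it was correlated at r = 0.83 in lung (rho 0.87, permutation p 5e-05, adjusted p 0.000123, 0.81 without the farthest 2, 0.79 within slides). In forestomach, where Cfd fell into separate groups of arrays, the list mean lay between 1.12 and 3.59 (mean log2 ratio) on the 10 arrays with high Cfd and between 0.66 and 1.28 on the 9 others. Over all forestomach arrays r was 0.93, and 0.94 within slides, with no p given because the arrays are separated. In liver, where Cfd was near background, it was 0.14 (p 0.588), and nothing is read from the liver correlations of Cfd. The 3 genes most like Cfd in lung, by Pearson r of the deviations over 18 arrays and 14742 genes, were Retn (resistin, a hormone of mouse fat) at 0.96, Car3 at 0.95 and Atp6v1b1 at 0.92. Retn is itself in the adipocyte list.

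**Figure D5:**
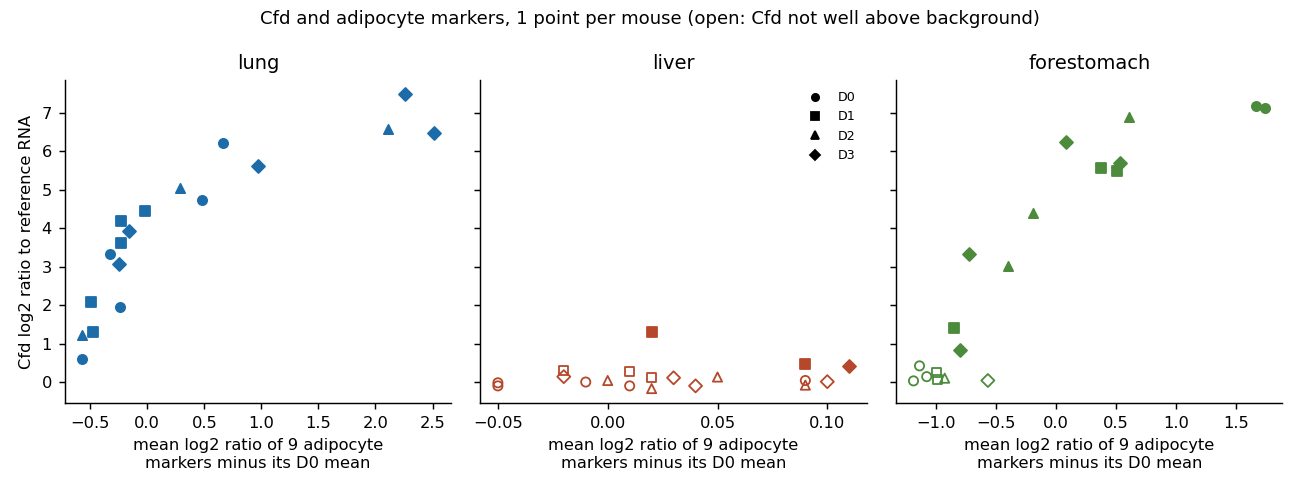
Cfd log2 ratio to the reference RNA (vertical axis) against the mean of 9 adipocyte markers, as a difference from its D0 mean in log2 units (horizontal axis, scaled per tissue), 1 point per mouse. Marker shapes give the dose group and open markers are arrays on which Cfd was not well above background. D3 mice 17 and 19 lie at the upper right in lung, with 7.48 and 6.48, and all liver values lie between -0.16 and 1.32.

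C1qa was set against the mean of 6 macrophage markers. The correlation was 0.73 in lung (rho 0.69, permutation p 0.00182, adjusted p 0.00328), but 0.41 without the farthest 2 mice, which include mouse 17, and 0.87 within slides. It was 0.68 in liver (rho 0.73, p 0.00145, adjusted p 0.0028), 0.59 without the farthest 2 and 0.80 within slides. In forestomach, where C1qa fell into clusters by slide, it was -0.45 over all arrays and 0.47 after slide means were removed, so the sign differed. The genes most like C1qa were Cfp (properdin, which stabilises the alternative pathway enzyme) at 0.94, Casr at 0.89 and Ackr1 at 0.89 in lung over 18 arrays, and Ccl6 at 0.87, Gpr65 at 0.86 and B430306N03Rik at 0.84 in liver over 19. In forestomach they were Kazn at 0.99, Fbp2 at 0.98 and Rnf225 at 0.98, and with slide means removed these were 0.87, 0.81 and 0.86. There the member with the largest D3 change, C3, was most like Setd7 at 0.92, Il6st at 0.92 and Upk3b at 0.86. The lung matches of C1qa, picked from 14742 genes, were not computed again without mice 17 and 19. Without that pair the lung D3 change of Cfp went from 0.46 to -0.26.

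Only the C1q mean and Cfd were compared between tissues of the same mouse, and no relation passed the test for either. Slide means were not removed for these pairs, although the C1q values of forestomach split by slide. The mean of the C1q genes was correlated between lung and liver at r = 0.20, between lung and forestomach at 0.25 and between liver and forestomach at 0.21 (permutation p 0.416, 0.331 and 0.378). Cfd gave 0.10, -0.25 and 0.36 (p 0.727, 0.314 and 0.129) for the same pairs. Liver Cfd was above background on 3 of 19 arrays, so nothing is read from the Cfd pairs with liver. The adjusted p of these 6 lay between 0.194 and 0.755, rho between -0.27 and 0.33, and r without the farthest 2 between -0.10 and 0.27.

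Other genes of the system, 48 by name of which 45 were on the array, gave 0 calls in 33 tested in lung, 40 in liver and 32 in forestomach at each dose by limma. At D3 and an unadjusted p of at most 0.05, 6 were higher and 3 lower in lung, 3 higher and 0 lower in liver and 2 higher and 1 lower in forestomach. The background shares are those given above for D3. In lung the higher genes included C1s1 (0.61, SE 0.18, limma p 0.00393, adjusted p 0.15) and C1s2 (0.45, SE 0.20), which encode the C1s protease that cleaves C4 and C2. They also included Colec11, a lectin that starts the lectin pathway (0.61, SE 0.24), the receptor Cr2 of B cells and follicular dendritic cells (0.60, SE 0.26) and C1qbp (0.20, SE 0.10). Of 4 B cell markers 3 were also higher in lung at this limit, and their part in the Cr2 value was not tested. The lower genes were Itgax, a chain of complement receptor 4 (-0.50, SE 0.17, adjusted p 0.183), and the membrane regulators Cd55b (-0.24, SE 0.10) and Cr1l (-0.18, SE 0.07). The alveolar macrophage markers also lay below D0 in lung at D3, with 0 of 4 changes above 0, a median of -0.28 and 1 at this limit. Their summed Cy5 signal ranged from 28620 to 76250 in D0 and from 27680 to 47860 in D3, and their part in the Itgax value was not tested. In lung the lectin pathway gene Fcna and the macrophage receptor Vsig4 had the largest estimates, 0.88 (SE 0.43) and 0.75 (SE 0.41).

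Without lung mice 17 and 19, a setting chosen after the data were seen, 0 of the 33 genes were called by limma, 2 had an unadjusted p of at most 0.05, both higher, against 9.87% of all probes in either direction, and their median was -0.01. C1s1 was 0.50 (SE 0.20, p 0.0277). Colec11 was then 0.53 (SE 0.28), C1s2 0.32 (SE 0.23), Cr2 0.32 (SE 0.21), Itgax -0.37 (SE 0.19), Cd55b -0.18 (SE 0.11), Cr1l -0.05 (SE 0.06) and C1qbp 0.04 (SE 0.08), and each of these missed the limit. Fcna and Vsig4 were 0.04 (SE 0.15) and -0.06 (SE 0.22). The Kupffer cell list, which holds Vsig4, stood 2.14 and 0.90 above its D0 mean in mice 17 and 19.

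In liver the 3 genes were C8a, a terminal pathway chain (0.60, SE 0.24, p 0.0194, limma adjusted p 0.967), Colec12 (0.42, SE 0.14, adjusted p 0.964) and Cd93 (0.40, SE 0.13, adjusted p 0.964). In forestomach they were Cd93 (0.72, SE 0.33), C1s1 (0.59, SE 0.25) and, lower, Cr1l (-0.35, SE 0.12, adjusted p 0.311). The largest estimates there were those of Cfi, the protease that inactivates C3b (-1.68, SE 1.45), and Colec10 (1.22, SE 0.79), with adjusted p of 0.801 and 0.704. By role, the median D3 change of the classical and lectin pathway genes was 0.35 over 8 tested in lung, -0.01 over 12 in liver and 0.05 over 9 in forestomach, and that of the receptors -0.01, 0.04 and -0.04 over 10, 7 and 9. In lung it was 0.06 over 7 soluble regulators, -0.15 over 4 membrane regulators and -0.17 over 3 terminal pathway genes, and 0.05 over all 33.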

How the data were processed

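Labelled sample RNA (Cy5) and reference RNA (Cy3) were hybridised on 56 two-colour arrays. Per the file headers, the deposited scanner output gives median intensity values of each spot from Feature Extraction 10.7.3.1, without background subtraction, and flag values of 0 or 1. The authors' deposited table holds log2 ratios, made per the study's methods by LOWESS within each array. It was checked against the scanner values (r 0.977 to 0.998 over arrays, slope 0.952 to 0.996) and used as the main values. Dyes were not swapped, so a probe's own dye bias stays in each ratio and cancels only in differences between arrays.

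Probes were named through RefSeq accessions in a table for GRCm38.p6 (26413 of 55681 probes, 20018 genes). The design file's build differs, so no gene coordinates are given except for promoters. A probe was tested in a tissue if at least 3 arrays of the tissue had it well above background in Cy5 and none flagged most of its spots as non-uniform (31438, 24683 and 27485 probes in lung, liver and forestomach). limma 3.58.1 in R 4.3.3 (lmFit, eBayes, two-sided) compared each dose with D0, fitted the dose step, and compared tissues in 1 fit of all arrays. That last fit takes 1 spread per probe over all tissues. Benjamini-Hochberg adjustment ran over all probes tested. A call needed an adjusted p of at most 0.05 and a 1.5-fold change. The methods' Fs statistic was rewritten in R, because the study's software was not at hand, and run with 100 shuffles. Within-slide correlations had dose-group and slide means removed together. Relations between members used permutation tests in Python 3.11.15 (numpy 2.4.6). Scripts were tested on simulated data. The number of arrays limits the precision, and p-values measure the spread between mice, pooled over the tissues where tissues are compared.

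The members and the lists of cell type markers and other complement genes were chosen by name with earlier results of these data known. The rule for named genes took all 9 members in every tissue, the other complement genes past an unadjusted p of 0.05 at D3, the 2 with the largest D3 change in each tissue, and the 3 genes most like C1qa and most like the member with the largest D3 change. One gene that the rule takes is not reported here. Same-numbered arrays of the tissues come from the same mouse: their deviations from group means correlated at a mean r of 0.14 (lung with liver), 0.02 (lung with forestomach) and 0.05 (liver with forestomach). Alternatives are given in the closing section.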

Additional observations from a re-analysis of the deposited data

Results flagged for a closer look

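In 6 of 99 groups of 4 or 5 mice the highest or lowest array stood apart from the others of its group by Dixon's 95% criterion, where chance gives about 1 in 20, or 5 groups. In liver at D3 mouse 20 had the highest C3, with 6.00 against 5.56 for the next, and the highest C1qc, with 3.87 against 3.68. In liver at D2 mouse 12 had the highest C2, with 5.35 against 5.24, and at D1 mouse 8 had the lowest Serping1, with 7.21 against 7.36. In lung at D0 mouse 5 had the highest C1qa, with 3.89 against 3.18. In forestomach at D3 mouse 18 had the lowest Serping1, with 4.68 against 6.22. No difference between tissues in a D3 change passed the limits for a member.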

How the results depend on the processing

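No member was called at D3 or in any trend under the alternatives run, except C3 and C2 in forestomach without slide 3, which made the number called 2, with C2 above background in 1 of the 3 D0 mice. That setting, forestomach slide 3 alone, normexp between tissues, and lung without mice 17 and 19 in the trend, between tissues and for the other complement genes were chosen after the data were seen. Signal over background limits Cfd, which was above it on 3 of 19 liver and 12 of 19 forestomach arrays.

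The median D3 change of the members in lung was -0.55 with array position as a covariate, 1.64 within slide 1 and -0.53 within slide 3. In liver it was 0 under loess from the scanner signals, -0.02 under median centring, 0.18 within slide 1, 0.03 within slide 3, and 0 to 0.12 with single mice left out. With array position the lung D3 changes were -1.03 for C3, -0.25 for C2, -0.55 for Cfb, -1.06 for C1qa, -1.15 for C1qb, -0.65 for C1qc, -0.55 for Serping1 and -0.06 for C4b, against 8.38 for Cfd, and those of forestomach -3.89 for Cfd, -0.73 for C1qa, -0.25 for C1qb and -0.26 for C1qc. The unadjusted limma p lay between 0.248 and 0.973 for the lung values below 0 and between 0.158 and 0.775 for those of forestomach. With array weights C1qa, C1qc and Serping1 in lung were each -0.01. Without mice 17 and 19 they were -0.28, -0.25 and -0.01, and C1qb -0.13.

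In liver loess gave -0.01 for C1qc and 0 for C4b, and median centring 0 for C3, -0.02 for C2, -0.05 for C1qc and -0.03 for C4b. Serping1 was 0.03 under normexp and as the mean of its probes. Cfd in forestomach was -0.98 under median centring. With single mice left out, lung C1qa ranged from -0.07 to 0.40 and C1qc from -0.05 to 0.34. In liver C2 ranged from -0.02 to 0.07, C1qc from -0.05 to 0.11 and Serping1 from -0.08 to 0.03. In forestomach Cfd ranged from -0.51 to 1.29, C1qb from -0.06 to 0.63 and C1qa from -0.15 to 0.91.

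Between tissues of vehicle mice, lung minus liver was 0.04 for C1qb under loess, 0.03 for C1qa and 0.07 for C1qb under normexp, and 0.73, 0.97, 0.53 and 0.66 for C1qa, C1qb, C1qc and Serping1 under median centring, which put the median of all probes at 0.62 here, 0.95 for lung minus forestomach, and 0.11 and 0.18 for D3 in lung and forestomach. Median centring left 5 members called for liver minus forestomach. With forestomach slide 3 alone, lung minus forestomach was -3.79, -0.58, -0.38 and -0.61 for Cfd, C1qa, C1qb and C1qc, and liver minus forestomach -0.36 and -0.25 for C1qa and C1qb. Lung minus forestomach Cfd ranged from -1.04 to 2.12 with single mice left out. The correlation of C1qa with the macrophage list in forestomach was -0.45 over all arrays and 0.15 under loess. With the mouse as a replicate block, the C1qc difference of -0.76 between lung and liver and the C1qb and C1qc differences of 0.90 and 0.81 between lung and forestomach became calls (adjusted p 0.0483, 0.0377 and 0.0392), and no other call changed. Apart from settings that compare slides or leave out arrays, the cause of these changes was not tested.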
